A study of Mus musculus with 4 samples.

Results

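The 9 genes described here carry the retinoic acid (RA) signal inside the cell. They are the RA receptors Rara, Rarb and Rarg, the retinoid X receptors Rxra, Rxrb and Rxrg, the cellular RA-binding proteins Crabp1 and Crabp2, and the nuclear receptor corepressor Nrip1. They were chosen by name, as rows of the deposited gene table, and all 9 were among its 19991 genes. Undifferentiated spermatogonia (SG, 2 libraries) were compared with differentiating spermatogonia (dSG, 2 libraries), which had been kept with RA for 36 h. Spermatogonia are the mitotic germ cells of the testis and include its stem cells. The cells were cultured from wild type mouse testes in a serum-free medium with FGF, LIF (ESGRO), GDNF and EGF. The SG cells received DMSO, the solvent, and their labels give C57BL/6 as the strain, as do those of the dSG cells. The labels give the RA dose as 100 µM, while the methods of the study name a nanomolar dose and DBA mice, and the protocol field names RA for all 4 samples although the treatment field of the SG samples says DMSO. By the design text most dSG cells were Kit+, and the methods place the RA step on Matrigel. Whether the samples of a group were separate cultures is stated in neither source, and the p-values therefore rest on a spread that may be technical.

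RA enters the nucleus and binds a pair made of an RA receptor (RAR) and a retinoid X receptor (RXR), which sits on repeated half-sites in the DNA of its target genes. Without RA the pair recruits corepressors, and with RA it exchanges them for coactivators. The binding proteins hold RA in the cytosol, where CRABP1 is mainly linked to its breakdown and CRABP2 to its delivery to RAR. In the testis RA starts the differentiation of spermatogonia and later the entry into meiosis, with Kit and Stra8 as the usual markers of the response.

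Upon RA-induced differentiation, Rarb had the largest rise of the members and Rxrg the largest fall, and both passed the test. Rarb went from a mean of 1.89 ± 2.67 to 62.7 ± 14.8 normalized counts (SD, n = 2) and Rxrg from 204 ± 20.5 to 4.52 ± 2.85. Nrip1 lay higher in both dSG libraries, and Rarg, Rxra and Crabp2 lay lower in both, without passing the test. Rara, Rxrb and Crabp1 had overlapping groups. A normalized count is the number of reads of a gene divided by a size factor for its library, and a gene was called when the adjusted p of limma over all 14108 tested genes was under 0.05. Of the 9 members 1 was called higher and 1 lower, beside 1.16% of all tested genes called higher and 4.91% called lower. The groups did not overlap for 2 members with higher dSG values and 4 with lower ones, against 33.2% and 32.7% of all tested genes in those directions. With 2 libraries a group an exact permutation test of a single value cannot give a two-sided p under 0.333. All 9 genes passed the filter on low values, but Rarb passed through the dSG libraries alone and Rxrg through the SG libraries alone, so these had to differ to be tested.

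The promoter of Rarb is shown because the gene rose and because its start holds the arrangement of half-sites that RAR and RXR bind. The window is chr14:16575427-16575726 on the minus strand (RefSeq, GRCm38.p6), from 250 bases before to 50 bases after the start of transcription, and capitals mark 2 half-sites in the same orientation that are 5 bases apart (a direct repeat called DR5).
Rarb promoter: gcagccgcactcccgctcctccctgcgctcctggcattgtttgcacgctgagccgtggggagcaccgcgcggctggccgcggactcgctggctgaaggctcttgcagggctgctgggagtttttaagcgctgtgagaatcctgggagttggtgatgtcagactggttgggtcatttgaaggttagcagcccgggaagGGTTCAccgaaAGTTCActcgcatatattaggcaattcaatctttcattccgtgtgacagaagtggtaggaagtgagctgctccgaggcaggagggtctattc

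The repeat lies 53 to 37 bases before the start of Rarb, at chr14:16575513-16575529, and is the RA response element known from this promoter. The gene Cyp26a1, which encodes an RA-degrading enzyme and rose with RA, holds a DR5 at chr19:37697776-37697792, 32 to 16 bases before its start on the opposite strand of its promoter. The listed windows of Stra8, Cyp26b1 and Kit, which rose too, held no DR5. The repeats of Rarb and Cyp26a1 are shown side by side since they share the second half-site and the spacing, with the half-sites in capitals.
Rarb DR5: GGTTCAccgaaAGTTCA
Cyp26a1 DR5: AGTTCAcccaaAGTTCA

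The search took, on both strands, the half-site AGGTCA and its variants, the word AGTTCA, then the word GGGTCA and lastly the word GGTTCA. A DR5 was any 2 of them in the same orientation with 5 bases between. Such a repeat was found in 32 of 32851 RefSeq promoter windows of the same length (0.0974%), belonging to 31 of 27025 genes. Windows were listed for 8 of the members, 16 in all, and the single window of Rarb was the one that held a DR5. No window of a member held repeats with a spacing of 1 (DR1, in 0.222% of all windows) or 2 (DR2, in 0.268%). Of all windows 43.7% hold a half-site, in a repeat or not. Outside such a repeat the window of Rarb held 1 half-site beside the 2 of its DR5. The third of the 4 windows of Rara held 4 and the fourth 1. The first window of Rarg held 1, the second of Rxra 3 and the first of Nrip1 3. The first window of Rxrg held 1 and the second 2. The other windows of the members held none. A match is a description of the letters, and these windows leave out most regulatory sequence.

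Rxrg, the member with the largest fall, has 2 listed starts. The window at the first start holds 1 half-site and is not printed. The window at the second start, chr1:167618015-167618314 on the plus strand, is shown since it holds 2 single half-sites, in capitals. They lie too far apart to form a DR1, DR2 or DR5.
Rxrg promoter, second start: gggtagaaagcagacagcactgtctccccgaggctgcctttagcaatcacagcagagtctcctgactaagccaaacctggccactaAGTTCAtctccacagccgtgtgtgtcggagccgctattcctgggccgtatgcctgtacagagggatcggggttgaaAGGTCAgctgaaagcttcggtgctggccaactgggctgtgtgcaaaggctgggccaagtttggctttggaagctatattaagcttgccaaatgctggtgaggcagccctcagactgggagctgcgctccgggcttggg

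Rarb (ENSMUSG00000017491, chr14:16430839-16819156, minus strand) encodes the RAR isotype that is itself a classical RA target. It was listed at 0 and 3.78 normalized counts in SG replicates 1 and 2 and at 52.2 and 73.2 in dSG replicates 1 and 2. These values were 0, 6, 72 and 117 reads. Both dSG libraries lay above both SG libraries, also above the 9.78 normalized counts that 3 reads, the limit a count of 0 allows, are worth in SG replicate 1. The log2 fold change was 3.56 (SE 0.47, 95% confidence interval 2.32 to 4.80, adjusted p = 0.0323 in limma), which is 11.8-fold on the scale of log2(normalized count + 4), and the ratio of the group means was 33.2. It ranked 11 from the top among the 14108 tested genes. Rarb passed the filter through the dSG libraries alone, so it had to differ to be tested. With a pseudocount of 0.4 the log2 fold change was 5.59 and the adjusted p 0.0832, the highest of all alternatives in which Rarb was tested, and with a filter of 40 in every library it was not tested. Leaving out SG replicate 1 or 2 gave a log2 fold change of 3.08 or 4.04.

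Over 38.4% of their length (GENCODE M21) the exons of Rarb overlap exons on the opposite strand, those of the DNA topoisomerase gene Top2b and of Gm48162, which was not analysed here. Of the longest Rarb transcript 57.7% is shared with Top2b. No source used here states whether the counting used strand, and without strand the reads of the shared stretches cannot be told apart. Top2b itself had 469 and 662 normalized counts in SG against 1436 and 1501 in dSG, with a log2 fold change of 1.39 (SE 0.24, adjusted p = 0.0504 in limma). Per 1000 reads of Top2b there were 0 and 5.70 reads of Rarb in SG and 36.4 and 48.8 in dSG. The ratio was higher in both dSG libraries, but it is made from the same reads of Rarb, which passed the filter through the dSG libraries alone. The part of Top2b reads in the counts of Rarb was not tested.

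Rara (ENSMUSG00000037992, chr11:98927818-98974942, plus strand), the RAR isotype expressed most widely, stood at 2190 and 948 normalized counts in SG and at 1241 and 1230 in dSG. The dSG values lay between those of the 2 SG libraries, which differed 2.31-fold. Its log2 fold change was -0.22 (SE 0.44, interval -1.38 to 0.94, adjusted p = 0.750 in limma). It was 0.38 when SG replicate 1 was left out and -0.82 when SG replicate 2 was, and scaling to total reads gave 0.0788.

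Rarg (ENSMUSG00000001288, chr15:102234938-102257517, minus strand), the RAR isotype that genetic work in mice ties to undifferentiated spermatogonia, stood at 1372 and 841 normalized counts in SG. In the dSG libraries it stood at 443 and 423. Both SG libraries lay above both dSG libraries, and the means were 1106 ± 376 and 433 ± 14.2 (SD, n = 2). The log2 fold change was -1.30 (SE 0.30, interval -2.09 to -0.52), and the adjusted p was 0.0810 in limma and 0.0606 in edgeR. DESeq2 gave an adjusted p of 0.00416. Over the limma alternatives that left out no library the adjusted p ran from 0.00240 to 0.106. With any library left out the log2 fold change lay between -1.65 and -0.95.

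Rxra (ENSMUSG00000015846, chr2:27676440-27762957, plus strand) encodes the most general partner of the RARs and had the highest count of the members in every library. It stood at 5465 and 3702 normalized counts in SG and at 2295 and 2383 in dSG, with no overlap. Its log2 fold change was -0.94 (SE 0.25, interval -1.61 to -0.28, adjusted p = 0.107 in limma). DESeq2 gave an adjusted p of 0.0392. Over the limma alternatives that left out no library the adjusted p ran from 0.0332 to 0.140. With any library left out the log2 fold change lay between -1.22 and -0.66.

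Rxrb (ENSMUSG00000039656, chr17:34031812-34038399, plus strand), the isotype whose loss in mice impairs Sertoli cells and sperm, stood at 1424 and 679 normalized counts in SG and at 1184 and 1033 in dSG. As for Rara, the dSG values lay between the 2 SG values. The log2 fold change was 0.17 (SE 0.40, interval -0.90 to 1.23, adjusted p = 0.793 in limma), and it became 0.70 when SG replicate 1 was dropped and -0.36 when SG replicate 2 was.

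Rxrg (ENSMUSG00000015843, chr1:167598384-167639623, plus strand), the isotype best known from muscle and the nervous system, stood at 218 and 189 normalized counts in SG. It fell to 6.53 and 2.50 in dSG, and the reads were 67 and 301 in SG against 9 and 4 in dSG. The 2 SG libraries lay close together and far above the dSG libraries. The log2 fold change was -4.65 (SE 0.36, interval -5.60 to -3.70, adjusted p = 0.0237 in limma), 25.1-fold lower on the fitted scale, and the SG mean was 45.1 times the dSG mean. It ranked 15 from the bottom of the tested genes. The call held in every alternative in which Rxrg was tested, with -4.55 on the log2 scale when SG replicate 1 was left out and -4.75 when SG replicate 2 was.

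**Figure D1:**
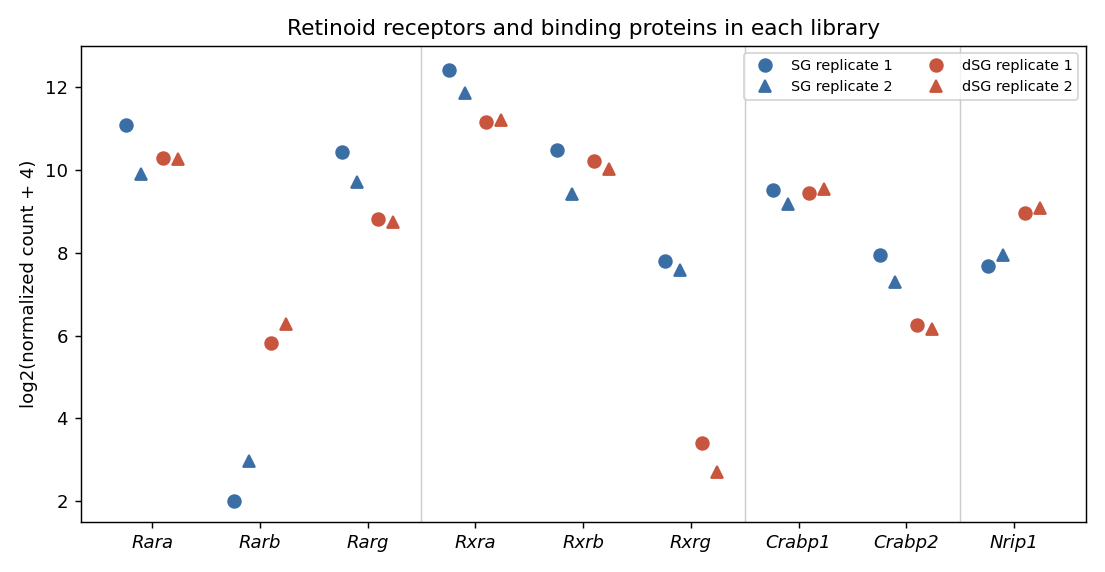
The plot of the members by library gives log2(normalized count + 4) on the y axis for each gene on the x axis, with 1 point per library (SG blue, dSG red, circles replicate 1, triangles replicate 2). Rarb is near the bottom in SG (0 and 3.78 normalized counts) and higher in dSG, Rxrg shows the reverse, and for Rara and Rxrb the 2 SG points enclose the dSG points.

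Crabp1 (ENSMUSG00000032291, chr9:54764748-54773110, plus strand) stood at 733 and 578 normalized counts in SG and at 694 and 740 in dSG. The groups overlapped, and the log2 fold change was 0.14 (SE 0.21, interval -0.43 to 0.71, adjusted p = 0.682 in limma). Without SG replicate 2 it was -0.0329.

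Crabp2 (ENSMUSG00000004885, chr3:87948666-87953376, plus strand) stood at 244 and 154 normalized counts in SG and at 72.5 and 67.0 in dSG. Both dSG libraries lay below both SG libraries, with a log2 fold change of -1.42 (SE 0.31, interval -2.26 to -0.59) and an adjusted p of 0.0772 in limma and 0.0598 in edgeR. DESeq2 gave 0.0151. Over the limma alternatives that left out no library the adjusted p ran from 7.85e-05 to 0.107. With any library left out the log2 fold change lay between -1.75 and -1.10.

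Nrip1 (ENSMUSG00000048490, chr16:76287400-76373827, minus strand) encodes RIP140, a corepressor that binds nuclear receptors when they hold their ligand. It stood at 202 and 244 normalized counts in SG and at 498 and 539 in dSG, with means of 223 ± 29.8 and 519 ± 28.7 (SD, n = 2). The groups did not overlap, and the fitted difference was 2.31-fold (log2 fold change 1.21, SE 0.21, interval 0.64 to 1.78, adjusted p = 0.0530 in limma). With quantile normalization the adjusted p was 0.0491 in limma, and it was 0.0526 in edgeR and 0.0104 in DESeq2. Over the limma alternatives that left out no library it ran from 0.00900 to 0.0949. With any library left out the log2 fold change lay between 1.07 and 1.34.

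In DESeq2 on the recovered reads 2 members were called higher and 4 lower, beside 3.32% and 10.4% of all tested genes. In edgeR 1 was called higher and 1 lower, beside 1.4% and 6.0%. In limma without adjustment 6 members had a p under 0.05, beside 10.5% of all tested genes in the higher direction and 16.3% in the lower one. The median log2 fold change of the 9 members was -0.22 and that of all tested genes 0.0138.

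**Figure D2:**
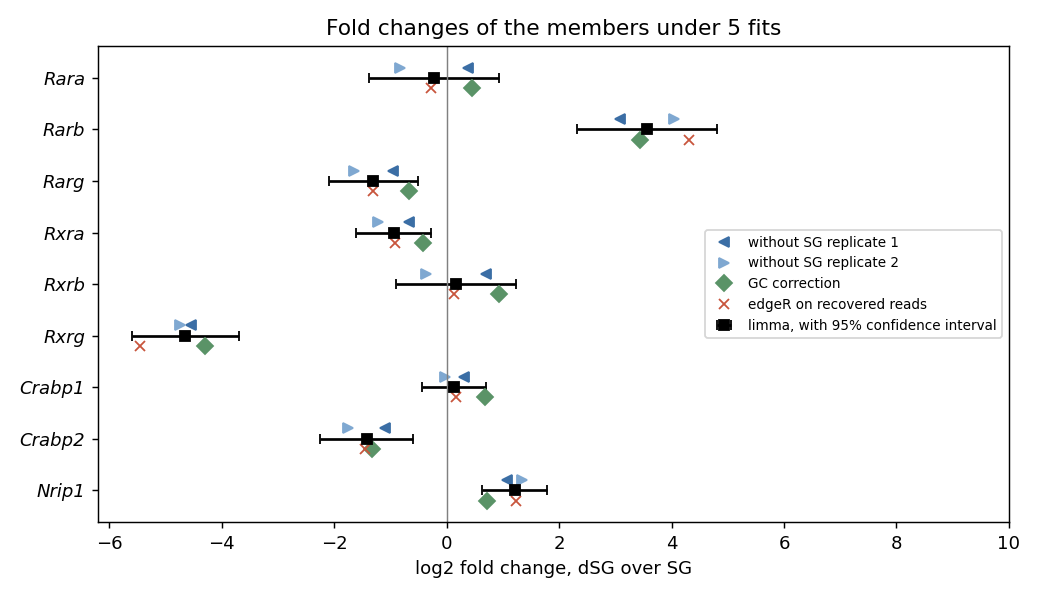
The plot of fold changes gives the log2 fold change of dSG over SG on the x axis for each member, as limma's estimate with its 95% confidence interval (black squares) and as 4 alternative fits without an interval (triangles, diamonds and crosses). The intervals of Rarb (2.32 to 4.80) and Rxrg (-5.60 to -3.70) do not include 0. Rarb passed the filter through the dSG libraries alone and Rxrg through the SG libraries alone, so both had to differ to be tested. The points of Rara, Rxrb and Crabp1 fall on both sides of 0.

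To compare levels between genes, normalized counts were divided by the length of each gene's exons in kilobases (kb). In the SG libraries the order of the receptors by level per kb was Rxra (1001 and 678), Rara (502 and 217), Rxrb (358 and 171), Rarg (322 and 197), Rxrg (95.1 and 82.5) and Rarb (0 and 0.717). The ranges of Rara, Rxrb and Rarg overlapped between the SG libraries. Within each SG library Rara stood above Rxrb and Rarg. The order of Rxrb and Rarg differed between the SG libraries and was not settled. In the dSG libraries the levels per kb were 420 and 436 for Rxra, 298 and 260 for Rxrb, 284 and 282 for Rara, 104 and 99.3 for Rarg, 9.92 and 13.9 for Rarb and 2.84 and 1.09 for Rxrg. Rxrb and Rara overlapped there, and the other neighbours did not. Crabp1 stood at 914 and 721 per kb in SG and at 866 and 922 in dSG, above every receptor in dSG.

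Within the RAR family the share of Rara in the summed level per kb was 60.9% and 52.3% in SG, and 71.4% and 71.3% in dSG. The share of Rarg was 39.1% and 47.5% in SG and 26.1% and 25.1% in dSG, and that of Rarb was 0% and 0.173% in SG and 2.49% and 3.52% in dSG. None of these 3 shares overlapped between the groups. Shares of a family move against each other, so these are not separate results. Among all tested genes, the normalized counts of the groups did not overlap for 33.2% with higher and 32.7% with lower dSG values. Even after its rise Rarb was thus the least abundant RAR transcript, and Rara stood at 2.73 and 2.84 times the level of Rarg in dSG against 1.56 and 1.10 times in SG. The summed RAR level per kb was 824 and 415 in SG and 398 and 395 in dSG.

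Within the RXR family the share of Rxra was 68.8% and 72.8% in SG and 58.3% and 62.6% in dSG, and that of Rxrb was 24.7% and 18.4% in SG and 41.3% and 37.3% in dSG. Rxrg made up 6.54% and 8.86% in SG and 0.394% and 0.156% in dSG. These shares did not overlap either, and they too move against each other. Among all tested genes, normalized counts did not overlap for 33.2% with higher and 32.7% with lower dSG values. No such count was made for shares. The ratio of the summed RXR to the summed RAR level per kb was 1.77 and 2.24 in SG and 1.81 and 1.77 in dSG, with overlapping groups. Crabp1 made up 83.2% and 86.1% of the summed Crabp1 and Crabp2 level per kb in SG and 94.0% and 94.8% in dSG, which is 4.95 and 6.21 times Crabp2 in SG and 15.8 and 18.2 times in dSG. A share compares transcripts within a library, so the size factor of the library cancels. An effect that differs between genes, such as that of GC content described below, does not cancel. The shares were not corrected for GC content, and no test was run on them.

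**Figure D3:**
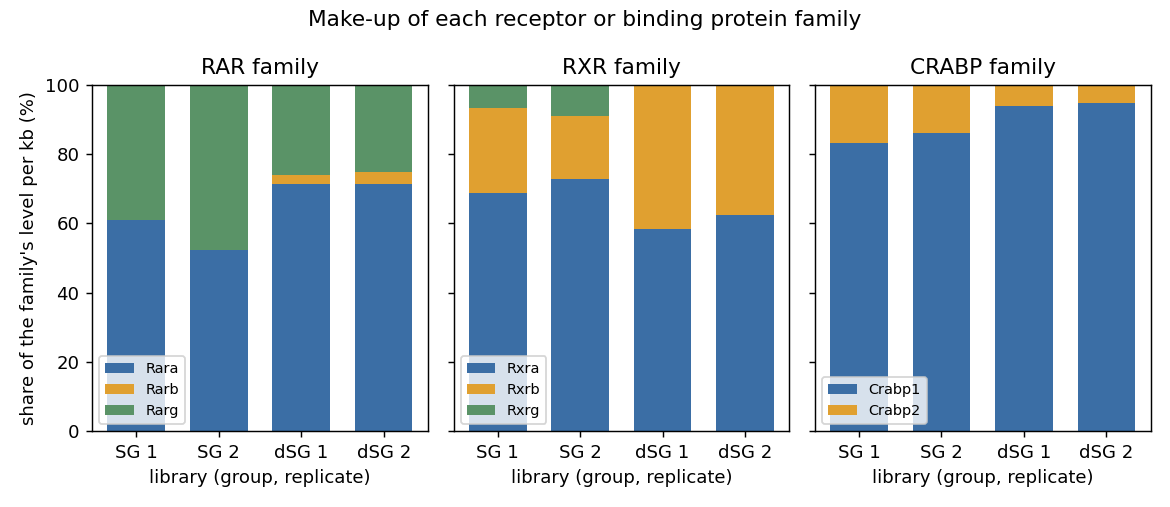
The stacked bars give each gene's share of its family's level per kb (y axis, %) in each of the 4 libraries (x axis, group and replicate), for the RAR, RXR and CRABP families. The share of Rarg is smaller in dSG (26.1% and 25.1%) than in SG (39.1% and 47.5%), and the strip of Rxrg seen in SG is under 1% in dSG.

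The labels of the groups could be checked with Kit, the receptor that marks differentiating spermatogonia, which stood at 319 and 347 normalized counts in SG and at 5825 and 5921 in dSG. Stra8, the gatekeeper of meiosis that RA induces, stood at 134 and 37.8 in SG and at 12205 and 12236 in dSG. The germ cell genes Ddx4 and Dazl were present in every library, from 3601 to 5712 and from 7280 to 21484 normalized counts. Of 11 tested germ cell markers 3 were called higher (Kit, Stra8 and Nanos3) and 2 lower (Gfra1 and Lin28a, both known from undifferentiated spermatogonia). The libraries held 7484560 and 26953654 reads in SG and 22307745 and 26921478 in dSG, and Lars2 alone took 18.3% of the reads of SG replicate 1 against 3.66% to 5.60% in the others. The SD of the log2 difference between replicates over all tested genes was 0.81 in SG and 0.20 in dSG.

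The difference between the SG replicates moved with the GC content of the genes (Spearman's rho 0.73 over 14102 genes, and 0.28 for the dSG replicates, across genes, which are not independent replicates). The members are mostly GC-rich, from 43.6% for Nrip1 and 47.8% for Rarb to 59.2% for Rara and 61.4% for Rxrb, while the median gene had 49.6%. Of the 9 members 7 were higher in SG replicate 1 than in SG replicate 2, and the same count over all tested genes was not made. The exceptions were Rarb and Nrip1, which have the lowest GC content of the members. For Rarb the difference rests on 0 and 6 reads in SG replicates 1 and 2. The log2 difference between the SG replicates was 1.21 for Rara and 1.06 for Rxrb and -0.27 for Nrip1, whereas the dSG replicates differed by 0.0131, 0.20 and -0.11 for these genes.

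When the log2 values of each library were corrected for GC content, limma called 4 members higher and 3 lower, beside 8.33% and 12.9% of all tested genes. Rarb (log2 fold change 3.44, adjusted p = 0.0109) and Rxrg (-4.30, adjusted p = 0.00369) kept their calls. Rxrb moved to 0.94 (adjusted p = 0.0104), Crabp1 to 0.68 (adjusted p = 0.0422) and Nrip1 to 0.72 (adjusted p = 0.0432). Rarg moved to -0.66 (adjusted p = 0.0225) and Crabp2 to -1.33 (adjusted p = 0.0255). Rara (0.44, adjusted p = 0.122) and Rxra (-0.42, adjusted p = 0.0514) were not called. The estimates of Rarb, Rxrg and Crabp2 moved less under this correction than those of the other 6 members.

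**Figure D4:**
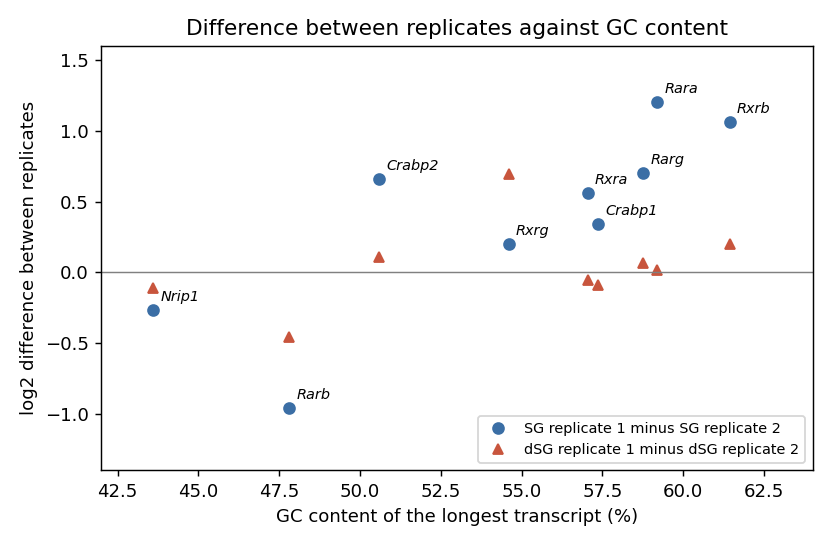
The plot of replicate differences against GC content gives the GC content of each member's longest transcript (x axis, %) and the log2 difference between replicate 1 and replicate 2 (y axis) for the SG libraries (circles) and the dSG libraries (triangles). The SG circles run from -0.96 for Rarb to 1.21 for Rara and are higher for the GC-rich members, while most triangles lie near 0. The circle of Rarb rests on 0 and 6 reads.

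Markers of other cell types moved with some of the members. In bulk RNA, fewer cells of a type and less RNA per cell cannot be told apart. Of 16 fibroblast and feeder cell markers 9 were tested, 1 was called higher (Fbn1) and 1 lower (Pdgfra), and their median log2 fold change was -2.14. DESeq2 called 1 of them higher and 6 lower, and edgeR 1 and 3. Their summed level was 35532 and 17599 normalized counts in SG and 7785 and 7715 in dSG, with Col5a1, Fn1 and Col1a1 the largest parts. Col3a1, Lum and Dcn, which define fibroblasts, were at or under 9.43 in every library. Against the direction of the sum, Lum (0 and 0.629 in SG, 8.70 and 6.88 in dSG), Dcn (0 and 0.629, 5.08 and 4.38) and Col1a2 (means of 8.09 in SG and 29.9 in dSG) had higher values in dSG. Of 10 Sertoli cell markers 6 were tested and 2 called lower (Sox9 and Clu), with a sum of 838 and 575 in SG and 288 and 299 in dSG. Of 4 endothelial markers 1 was called lower (Pecam1), with a sum of 440 and 488 in SG and 191 and 223 in dSG. No peritubular myoid marker (sum 218 and 115 in SG, 76.2 and 94.5 in dSG), Leydig cell marker (215 and 317, 367 and 351) or macrophage marker (362 and 500, 452 and 426) was called in limma, edgeR or DESeq2, and without adjustment 1 peritubular marker, lower in dSG, had a p under 0.05 in limma and 0 of the others did. The fibroblast, Sertoli, endothelial and peritubular sums were lower in dSG, as were Rarg, Rxra, Rxrg and Crabp2, and their part in those values was not tested. By the methods, the cultures were started from cells sorted as CD9+ and c-Kit-. The paper also says that such cells isolated from testes may hold a few somatic cells. Its methods name feeder cells for the cultures used in proteomics and Matrigel for the RA step.

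Other genes of the RA pathway were read from lists, and 2 genes stand in more than 1 list. Of 16 known RAR target genes 11 were tested, and 4 were called higher and 1 lower, beside 1.16% and 4.91% of all tested genes. Their median log2 fold change was 1.30. Without adjustment 6 had a p under 0.05 in limma in the higher and 2 in the lower direction. EdgeR called 5 higher and 1 lower, and DESeq2 5 and 2. Stra8 (log2 fold change 7.33, adjusted p = 0.0244), Cyp26a1 (5.32, adjusted p = 0.0237), Cyp26c1 (4.67, adjusted p = 0.0237) and Cyp26b1 (2.04, adjusted p = 0.0428) rose, the last 3 encoding enzymes that degrade RA. Ret, the receptor for GDNF signals that keeps spermatogonia undifferentiated, fell from 17510 and 10011 to 2014 and 1985 normalized counts (-2.72, adjusted p = 0.0276). Cyp26a1, whose DR5 is printed with that of Rarb, went from 16.3 and 12.0 to 697 and 729.

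Of 20 coregulators of RAR and RXR all were tested, 1 was called higher and none lower, with a median log2 fold change of 0.30. Without adjustment 1 had a p under 0.05 in the higher and 2 in the lower direction, and the lower calls were 0 in edgeR and 1 in DESeq2. Ncoa1, the coactivator SRC-1, rose from 160 and 171 to 687 and 750 normalized counts (log2 fold change 2.09, adjusted p = 0.0254 in limma). Both dSG libraries lay above both SG libraries, and the SG values lay close together.

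Of 12 nuclear receptors that pair with RXR 8 were tested and 1 was called, lower, with a median of -0.37. That was Nr4a1 (NUR77), an immediate early gene, which fell from 1150 and 831 to 323 and 333 normalized counts (-1.56, adjusted p = 0.0405 in limma). Unadjusted p-values in limma were under 0.05 for 1 of these partners in the higher and 3 in the lower direction. EdgeR and DESeq2 each called 0 higher and 2 lower. Of 10 orphan receptors that bind similar repeats 7 were tested and none was called in limma, with a median of 0.40. Without adjustment 2 of them had a p under 0.05, both higher in dSG, edgeR called 0, and DESeq2 called 1 higher and 1 lower. The smallest p-values there were those of Nr2c2 (727 and 946 in SG, 1694 and 1853 in dSG, 1.09, adjusted p = 0.0654) and Rorb (0 and 6.92 in SG, a mean of 20.5 in dSG, 1.89, adjusted p = 0.139). Of 13 other retinoid carriers and uptake genes 7 were tested and 1 was called, lower, with a median of -0.02. Unadjusted p-values in limma were under 0.05 for 2 of them in the higher and 2 in the lower direction. EdgeR called 0 higher and 1 lower, and DESeq2 1 and 2. Stra6l, a retinol transporter, fell from 35.8 and 52.9 to 8.70 and 6.26 normalized counts (-2.06, adjusted p = 0.0497 in limma).

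**Figure D5:**
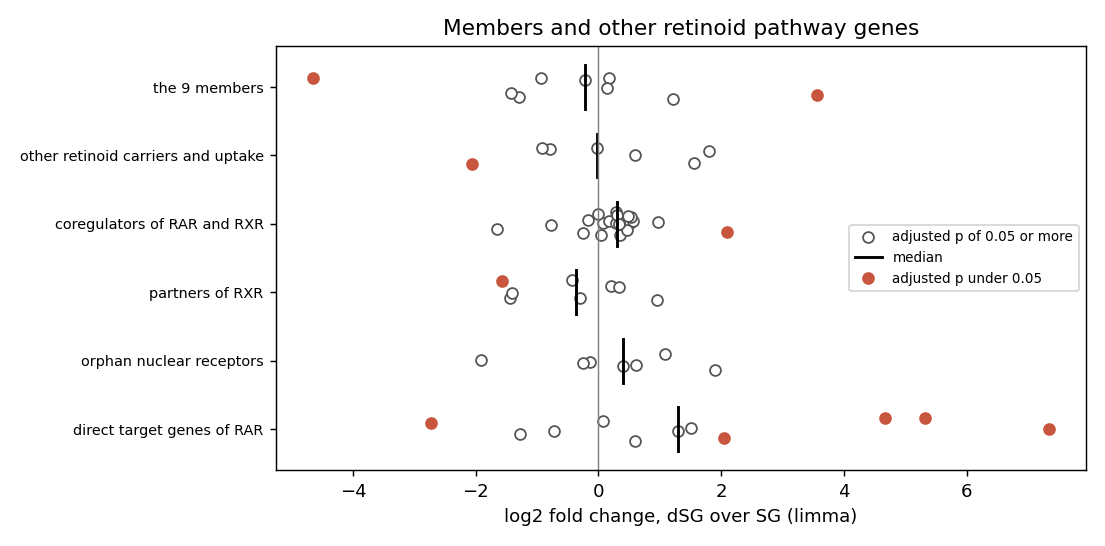
The plot of pathway lists gives the log2 fold change of dSG over SG in limma (x axis) for each tested gene of the 9 members and of 5 lists (y axis), filled where the adjusted p was under 0.05, with a black line at the median. The known RAR targets spread widest, with Stra8 at 7.33 and Ret at -2.72, and among the coregulators the filled point is Ncoa1 at 2.09.

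The genes with the pattern over the 4 libraries most like that of Rarb were Pabpc4l, Mal, Epyc, Nrg1 and Ago4, at Euclidean distances of 0.265 to 0.681 between centred log2 values. Pabpc4l, the nearest, stood at 0 and 5.03 normalized counts in SG and 66.0 and 74.5 in dSG. Nearest to Rxrg were Gad1, Egr2, Pamr1, Miat and Tubg2, at 0.341 to 0.537. Gad1, which encodes an enzyme of GABA synthesis, stood at 163 and 155 in SG and 2.90 and 1.88 in dSG, and Egr2, an early growth response factor, at 2852 and 1972 in SG and 102 and 82.0 in dSG. With 4 libraries such likeness is a description of these values alone.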

How the data were processed

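Directional paired-end libraries of total RNA were aligned by the authors to GRCm38 (Subread), and featureCounts 1.5.3 gave the reads of each gene. Whether strand was used, and which annotation, is not given in the sources used here. The deposited signal holds normalized counts, that is, reads that the authors scaled by a size factor per library. Undoing the scaling gave whole reads for 100% of the values (tolerance 0.01). The deposited log2 fold changes, their score (the Wald statistic) and the deposited p-values are the authors' own DESeq2 results and were not used. Columns were matched to samples by group and replicate number.

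Genes that reached 20 normalized counts in at least 2 libraries were tested. Limma 3.58.1 (R 4.3.3) with a mean-variance trend was fitted to their log2 values (pseudocount 4). Condition was the only term, with Benjamini-Hochberg adjustment. The fit was also run on simulated counts with the same dispersion in all genes and both groups. These data differ from that setting, so the simulation does not show how the fit behaves on them. EdgeR 4.0.16 and DESeq2 1.42.0 were run on the recovered reads as alternatives, beside other scalings, filters, pseudocounts, a GC correction, a replicate block and leaving out each library. Lengths and GC content came from GENCODE M21, and promoters from RefSeq.

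The 9 members and all lists were chosen with earlier results of these data known. All members were named with the value of every library, Kit and Stra8 as checks, from each pathway list the called genes (at most 6) or otherwise the 2 with the smallest p, and the 5 genes nearest in pattern to the members with the largest rise and fall, leaving out predicted genes. Other names were chosen after their values were seen. Some genes of the lists are counted but not reported here by name.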

Additional observations from a re-analysis of the deposited data

How the results depend on the processing

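The calls of Rarb and Rxrg held except that Rarb missed the threshold with a pseudocount of 0.4 (log2 fold change 5.59, adjusted p = 0.0832), and neither was tested with a filter of 40 in every library. Over all genes limma called 164 higher and 692 lower. Higher calls were 96 with scaling to total reads, 108 with no filter, 47 with the filter of 40, 1175 with the GC correction and 468 in DESeq2. Lower calls were 415 with scaling to total reads, 273 with the filter of 40, 1822 with the GC correction and 1468 in DESeq2. Among the members, 2 were called higher with quantile normalization and in DESeq2, 0 with the filter of 40 and with a pseudocount of 0.4, and 4 with the GC correction, and lower calls were 0 with the filter of 40, 3 with the GC correction and 4 in DESeq2. Leaving out 1 library gave 41 to 5431 higher and 434 to 6021 lower calls, with 1 to 5 and 1 to 6 members. Fits without an SG library take the spread from the dSG pair alone, whose replicates lie close together, and those without a dSG library from the SG pair alone. The direction of Rara turned with scaling to total reads (0.0788), without SG replicate 1 (0.38, against -0.82 without SG replicate 2) and with the GC correction (0.44), that of Rxrb without SG replicate 2 (-0.36, against 0.70 without SG replicate 1) and that of Crabp1 without SG replicate 2 (-0.0329). Scaling to total reads shifted the median of all genes to 0.31. By the longest transcript or with no length scaling, the change in share was 3.69 or 3.52 percentage points for Rarb and 12.7 or 14.1 for Crabp1, and with no length scaling it was -3.48 for Rxrg.

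The replicate numbers are not stated to pair the samples, and the correlation of the replicate differences in SG and dSG was 0.23. The replicate block gave 1150 higher and 1790 lower calls, with 2 and 4 members, and together with the GC correction 2021 and 2692, with 4 and 3 members, and turned Rara to 0.44. The low counts of Rarb in SG (0 and 6 reads) and of Rxrg in dSG (9 and 4 reads) limit how well their fold changes are known.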
